A study of Homo sapiens with 72 samples.

Results

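The genes described here are 9 loci of leukocyte adhesion: the integrin subunit genes ITGB2, ITGAL, ITGAX, ITGB1, ITGA4 and ITGB7, the antisense RNA gene ITGB2-AS1, and the adhesion receptor genes ICAM3 and CD44. They were listed by name, out of 38899 protein-coding and long non-coding RNA genes of GENCODE 44, and the list was chosen by the measured response of the ITGB2 locus to bryostatin in REH cells, around which the other adhesion genes were set. The treatment contrast in REH therefore chose this locus, and its values are given below as a description with no test. Histone marks were mapped by Cut&Tag, in which an antibody directs a transposase to a modified histone so that the DNA around it can be sequenced. Cells were Raji, a Burkitt lymphoma line that carries Epstein-Barr virus, and NALM6 and REH, which are lines of B cell acute lymphoblastic leukemia. Each line was either left untreated or exposed to 1 nM bryostatin overnight according to the labels, while the legend of the paper's supplement describes a full day. H3K4me2, H3K4me3 and H3K27me3 were each profiled in 3 replicates of the 6 combinations of line and treatment, giving 54 libraries. Each line is a single cultured population with its own chromosome copy number, which was not measured, and nothing in the labels says that replicates were separate cultures, so that p-values measure only the spread between these libraries.

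Integrins are pairs of an alpha and a beta chain that span the membrane, bind ligands on other cells or in the matrix, and change from a bent to an extended form when the cell is activated from inside. ITGB2 encodes the shared beta chain of the leukocyte integrins, CD18. It pairs with the product of ITGAL to make LFA-1, the receptor for the ICAM proteins that lymphocytes use to hold on to their partners, and with the product of ITGAX, CD11c, to make a complement receptor known from myeloid cells, dendritic cells and some B cells. ITGA4 encodes the alpha chain that pairs with ITGB1 to bind VCAM1 and fibronectin, or with ITGB7 to bind the gut addressin MADCAM1. ICAM3 is a ligand of LFA-1 carried by leukocytes themselves, and CD44 is the receptor for hyaluronan. Bryostatin binds the diacylglycerol site of protein kinase C, and diacylglycerol signalling is a known route to integrin activation. Dimethylated H3K4 is found at promoters and enhancers, trimethylated H3K4 mainly at the starts of active genes, and H3K27me3 at genes held silent by Polycomb.

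The values are peak signals. For each library the authors called peaks with SEACR, and the signal of a peak is the read coverage summed over its bases. That coverage was scaled as RPKM, apart from the libraries of NALM6 replicate 1, whose scaling is not stated. The signals of all peaks touching a gene or its flanks of 3 kb were summed, and divided by the median of the same sum over the genes called in all 18 libraries of the mark, which were 5665 genes for H3K4me2, 6287 for H3K4me3 and 60 for H3K27me3. A value of 1 is thus the signal of a median marked gene in that library. A gene with no peak has the value 0, which means that no peak passed the caller and not that the mark was absent. A window of this kind can hold the start of a neighbour, so peaks within 1 kb of the main annotated start of each gene were also read separately.

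Several libraries stood apart. In the 6 libraries of NALM6 replicate 1 the signal was scaled in another way that is not stated, and the median peak length was 583 to 916 bp. The H3K27me3 peaks of NALM6 bryostatin replicate 3, a library of 6.86 M reads, were called as 78673 pieces with a median of 380 bp, and those of Raji bryostatin replicate 3 as 101702 pieces with a median of 710 bp. The other 48 libraries held 5.12 M to 47.9 M mapped reads as read back from the RPKM steps. For H3K4me2 in Raji the treated libraries, with 15.6 M to 18.8 M reads, were all deeper than the untreated ones, with 6.70 M to 13.9 M. The number of H3K27me3 peaks on the main chromosomes ran from 590 to 101702 per library, and in untreated Raji it was 819, 24143 and 73265. As a check of the lines, H3K4me3 lay in all 6 libraries at the start of every listed B lineage gene in Raji (6 of 6), of 4 in NALM6 and of 5 in REH. Genes of precursor B cells were marked in all 6 libraries at 1 of 5 starts for Raji, 3 for NALM6 and 4 for REH, and genes of mature B cells at 2 of 3 starts for Raji and at none for NALM6 or REH. None of 4 T cell, 4 myeloid and 3 erythroid or platelet genes was marked in all 6 libraries of a line.

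ITGB2 lies on the minus strand at chr21:44885953-44931989 of hg38, and its main start is at base 44920899. ITGB2-AS1 lies on the opposite strand at chr21:44921051-44929680, beginning between the main start of ITGB2 and its further upstream starts. Cut&Tag reads carry no strand, so a peak where the 2 genes overlap cannot be given to either. Most of their H3K4 signal was shared in Raji and REH, although some of these libraries also had smaller H3K4me2 peaks in the ITGB2 body beyond ITGB2-AS1. In NALM6, and for H3K27me3 in REH, ITGB2 held peaks in that part as well. Across the lines the locus held an element over the main start of ITGB2, called the start peak below, and an element over the body of ITGB2-AS1, called the upstream peak, whose H3K4me2 summit in the 3 treated REH libraries was 6.77 or 6.86 kb upstream of the ITGB2 start.

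The 300 bases around the summit of bryostatin replicates 2 and 3 are shown because they hold the H3K4me2 maximum of the upstream peak in those treated libraries. They lie at chr21:44927606-44927905 of hg38, read on the plus strand, and overlap exons 3 and 4 of ITGB2-AS1. The capitals mark matches to motifs of factors known from leukocyte genes or from signalling below protein kinase C, which were AP-1 (TGANTCA), PU.1 (GAGGAA), RUNX (TGTGGT) and NF-kB (its 10-base consensus, with 4 free bases), searched on both strands.
ITGB2 upstream summit: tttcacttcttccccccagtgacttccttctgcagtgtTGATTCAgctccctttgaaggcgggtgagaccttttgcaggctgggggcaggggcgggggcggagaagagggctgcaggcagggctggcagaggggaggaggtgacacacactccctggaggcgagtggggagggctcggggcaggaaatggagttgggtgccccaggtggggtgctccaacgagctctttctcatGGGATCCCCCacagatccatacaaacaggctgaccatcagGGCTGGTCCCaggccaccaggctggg
The window held 1 AP-1 match at bases 39 to 45, and 2 NF-kB matches at bases 235 to 244 and, on the minus strand, 275 to 284. No PU.1 or RUNX match was in it. A match to AP-1 was found in 6.36% of 45601 windows of the same length at the summits of H3K4me2 peaks of treated REH cells, and a match to NF-kB in 32.0%. The corresponding shares were 28.2% for PU.1 and 14.1% for RUNX. Among 34943 promoters of RefSeq the shares were 7.72% for AP-1, 25.6% for NF-kB, 27.9% for PU.1 and 13.1% for RUNX. Sp1 (GGGCGG), left in lower case, matched 2 times, at bases 90 to 95 and 96 to 101, and was in 57.0% of the summit windows. These matches are letters in a sequence, and no factor was measured.

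In REH cells the H3K4me2 signal over ITGB2 was higher in every treated library than in every untreated library. It was 2.61, 2.29 and 2.36 times the median gene in untreated replicates 1 to 3 and 6.02, 5.93 and 6.39 in bryostatin replicates 1 to 3. The means were 2.42 ± 0.171 and 6.12 ± 0.246 (SD, n = 3 each), a ratio of 2.53. The called length differed as well, 9.54 to 16.46 kb untreated and 19.89 to 23.55 kb treated, and the sum takes in both length and height. The mean coverage per called base was 219, 277 and 310 RPKM in the untreated and 333, 360 and 429 RPKM in the treated libraries. On the log2 scale the difference was 1.33 for the summed signal, 0.78 for the maximum and 0.61 for the mean per called base. The groups did not overlap on any of these measures. The untreated libraries held 18.8, 15.4 and 13.7 M reads and the treated ones 20.2, 18.2 and 22.8 M, and the part of depth in these values was not tested. ITGB2-AS1, which shares these peaks, had 2.21, 2.29 and 2.36 untreated and 5.31, 5.71 and 6.13 treated. Of 14796 genes with a peak in all 6 of these libraries, 0.176% (26 genes, or 9 when blocked by replicate) passed the limma test at an adjusted p of 0.05, and 10.3% had groups that did not overlap in either direction. The locus entered the list because of this contrast, so nothing is read from its place among them.

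**Figure D1:**
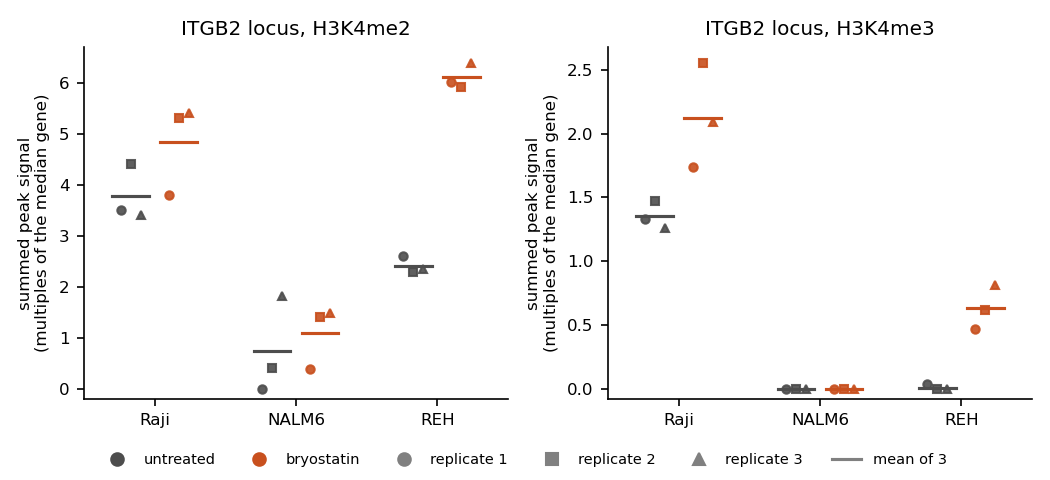
Summed peak signal over the ITGB2 locus in each library, in multiples of the median marked gene, for H3K4me2 (left) and H3K4me3 (right); points are libraries, shapes are replicates and bars are means of 3. In REH the treated libraries reach 5.93 to 6.39 for H3K4me2, above untreated values of 2.29 to 2.61, and no NALM6 library holds H3K4me3.

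Both elements had higher signals in the treated REH libraries. The start peak had H3K4me2 signals of 0.467, 0.486 and 0.551 in the untreated REH libraries and 1.65, 1.72 and 2.20 in the treated ones, 3.71 times the untreated mean. It was 2.66, 2.98 and 2.47 kb wide untreated and 4.57, 4.83 and 5.41 kb wide treated, with maximum coverage of 876, 795 and 909 RPKM and of 1872, 1646 and 2324 RPKM. The upstream peak had signals of 1.74, 1.81 and 1.80 before treatment and 3.66, 3.99 and 3.92 after it, 2.16 times the untreated mean. It was 9.25, 7.97 and 7.07 kb wide in the untreated libraries and 11.95, 11.9 and 11.39 kb wide in the treated ones. Both elements were thus present in untreated REH cells, and were wider and higher in the treated cells.

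H3K4me3 at the ITGB2 start was called in 1 of 3 untreated and in 3 of 3 treated REH libraries. The untreated peak, in replicate 1, was 1.36 kb wide with a maximum of 168.6 RPKM. That library held 27.9 M reads, against 18.8 M and 10.2 M in untreated replicates 2 and 3. The treated libraries held 14.1, 17.4 and 24.3 M, and the part of depth was not tested. In bryostatin replicates 1 to 3 the start peak was 2.88, 3.06 and 3.58 kb wide with maxima of 1289, 1204 and 1483 RPKM. The signal over the locus was 0.0356, 0 and 0 in the untreated libraries and 0.471, 0.619 and 0.811 in the treated ones. A second H3K4me3 peak, with its summit 11.8 and 12 kb upstream of the ITGB2 start, was called in bryostatin replicates 2 and 3 only. A start peak of H3K4me3 in all 3 treated and at most 1 untreated REH library was found at 0.242% of 15315 genes. That criterion was written from the pattern at ITGB2 in the contrast that chose it, so nothing is read from the share. Of the 11849 genes with H3K4me3 peaks in all 6 libraries, 0.473% (56 genes) were called by limma in REH, a count that fell to 2 without bryostatin replicate 3, and 14.6% had groups without overlap. ITGB2 was not among these 11849 genes because it lacked a peak in untreated libraries.

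**Figure D2:**
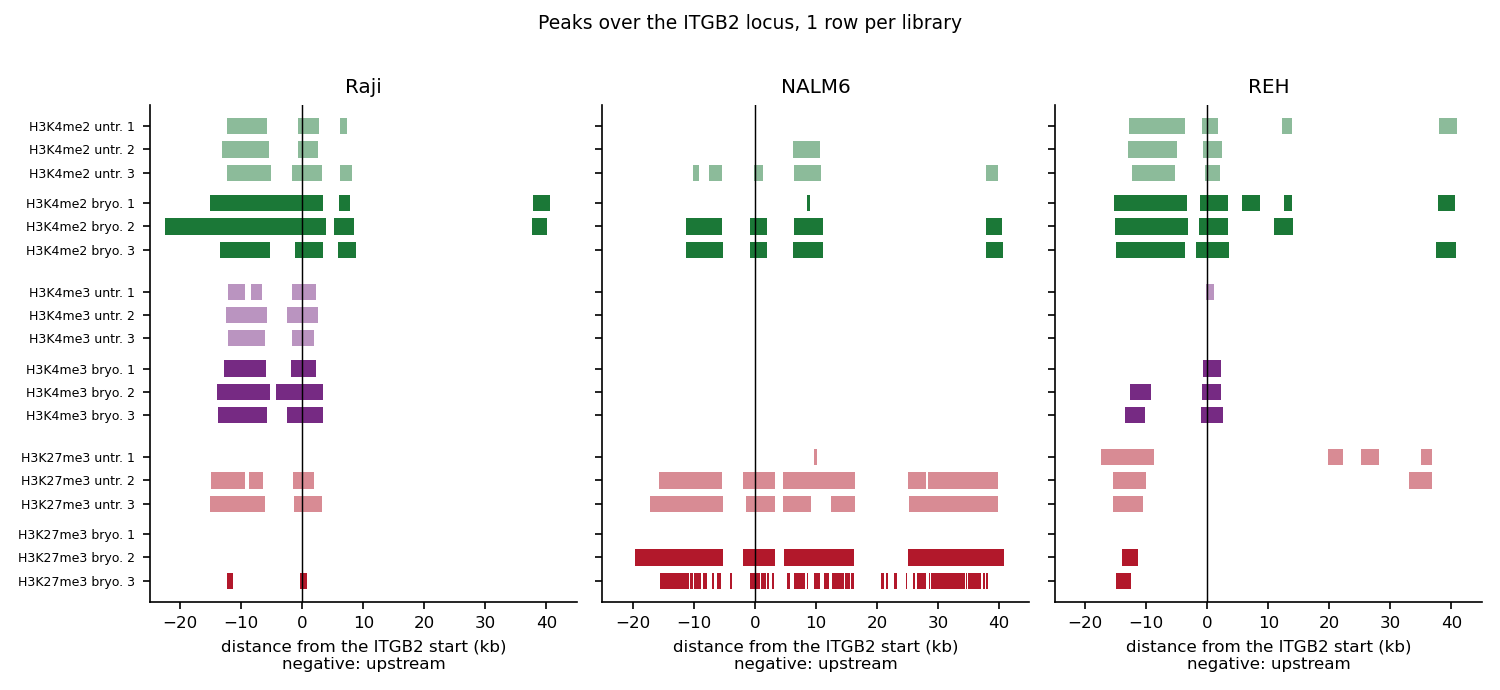
Peaks over the ITGB2 locus in each library, drawn against the distance in kb from the main start of ITGB2, with negative values upstream; each row is a library, pale bars are untreated and dark bars bryostatin, and green is H3K4me2, purple H3K4me3 and red H3K27me3. In REH the H3K4me3 peak at the start appears in the 3 treated libraries and in 1 untreated library, while NALM6 has H3K27me3 over the start and body in replicates 2 and 3 of both groups.

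In Raji cells ITGB2 carried both H3K4 marks at its start in all 12 libraries. The H3K4me3 signal over the locus was 1.33, 1.47 and 1.26 in untreated replicates 1 to 3 and 1.73, 2.55 and 2.09 in the treated ones, with means of 1.35 ± 0.105 and 2.13 ± 0.410 (SD, n = 3 each). The groups did not overlap, as was so for 12.2% of the 14061 genes tested. The difference was 0.63 on the log2 scale (SE 0.123) and did not pass the test (limma, Benjamini-Hochberg adjusted p = 0.327, or 0.0888 when replicate number was fitted as a block). Of the tested genes 0.00711% (1 gene, or 16 with the replicate block) passed in this contrast. The start peak was 1.19, 1.18 and 1.06 before and 1.38, 1.83 and 1.50 after treatment, and the upstream peak was 0.137, 0.287 and 0.199 before and 0.356, 0.727 and 0.587 after it. For neither element did the untreated and treated values overlap, and the ratios of the means were 1.37 and 2.68.

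H3K4me2 over ITGB2 in Raji was 3.51, 4.41 and 3.42 in the untreated and 3.81, 5.32 and 5.42 in the treated libraries, which overlap. The log2 difference was 0.32 (SE 0.193), and the adjusted p from limma was 0.793. In bryostatin replicates 1 and 2 the start and upstream peaks were called as 1 peak of 18.47 and 26.33 kb, so that the elements could not be measured apart there. In this contrast 0.0151% of 13206 genes passed the test and 9.69% had groups that did not overlap. All treated libraries were the deeper ones for this mark, and the part of depth in these values was not tested.

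NALM6 had the lowest called H3K4 signal at ITGB2 and, in replicates 2 and 3, the most bases under H3K27me3 peaks. No H3K4me3 peak lay over the locus in any of the 6 libraries. The H3K4me2 signal was 0, 0.420 and 1.83 in the untreated libraries and 0.393, 1.42 and 1.50 in the treated ones, with overlapping groups and a wide spread. A start peak of H3K4me2 was present in untreated replicate 3 and in bryostatin replicates 2 and 3 only, with signals of 0.423, 0.337 and 0.363. The peak seen in 4 of the NALM6 libraries with 10 bp bins lay inside the gene, beginning 6.3 to 6.4 kb downstream of the main start. H3K27me3 covered 70.4% of the gene body in untreated replicate 2 and 62.4% in untreated replicate 3, and 70.7% and 52.9% in the same replicates of the treated cells. In replicate 1, with its other scaling, the shares were 0.967% and 0%.

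Among untreated cells the H3K4me2 signal at ITGB2 was thus highest in Raji, with 3.42 to 4.41, then REH, with 2.29 to 2.61, and lowest in NALM6, with 0 to 1.83, and the 3 ranges did not overlap. The step from REH to Raji was 0.54 on the log2 scale, and 0.20 with the maximum in place of the summed signal and 0.10 with the mean signal per called base. The untreated REH libraries also enter the treatment contrast that brought ITGB2 into the list, so these levels are a description with no test. NALM6 could not be tested for ITGB2 because untreated replicate 1 held no peak. For H3K4me3 the order was the same for Raji against the others, with 1.26 to 1.47 against at most 0.0356 in REH and 0 in NALM6, and the last 2 lines overlapped.

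H3K27me3 at ITGB2 in REH lay away from the main start. The called length over the locus was 15.79, 9.23 and 5.01 kb in untreated replicates 1 to 3 and 0, 2.52 and 2.51 kb in the treated ones, without overlap between the groups. Lower called length in all treated than in all untreated REH libraries was found at 0.747% of 8034 genes with a peak in at least 3 of the 6 libraries, and these values belong to the contrast that chose the locus. The upstream H3K27me3 peak ended 8.7 kb before the start in untreated replicate 1, and replicates 1 and 2 had further peaks in the body. Untreated replicate 3 and the 2 treated libraries with a peak had it only upstream. The number of H3K27me3 peaks in the library was 48483, 18841 and 17621 in the untreated and 17141, 43247 and 46505 in the treated replicates. Treated replicates 2 and 3 thus had more peaks in all than untreated replicates 2 and 3 and less called length at ITGB2, while treated replicate 1, with none there, had the fewest peaks. In Raji the called lengths were 0, 11.54 and 13.46 kb untreated and 0, 0 and 1.95 kb treated, and the groups overlapped. The Raji libraries without a peak at ITGB2 were also those with the fewest peaks, 819, 3424 and 2778, and the part of this in the values was not tested.

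ITGAL, at chr16:30472658-30523567 on the plus strand, was marked at its own start in Raji alone. The H3K4me2 signal within 1 kb of its main start was 0.474, 0.532 and 0.478 in untreated and 0.543, 0.557 and 0.449 in treated Raji libraries, and these overlap. H3K4me3 peaks at this start were small, with 0.0415, 0.0758 and 0.0714 untreated and 0.0288, 0.0952 and 0 treated. No library of NALM6 or REH had a peak of either mark within 1 kb of the start. NALM6 instead held H3K27me3 there in replicates 2 and 3 of both groups, with called lengths over the locus of 10.35 and 7.56 kb untreated and 17.81 and 5.74 kb treated. REH held no H3K27me3 peak over ITGAL in any library.

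The wider ITGAL window also takes in a peak that begins 51.5 to 53.6 kb downstream of the start, beyond the end of the gene and at the neighbour ZNF768. That peak alone gave the H3K4me2 values of ITGAL in REH, 0.753, 0.737 and 0.739 untreated and 0.832, 0.815 and 0.887 treated, and in NALM6, 0.867, 1.01 and 0.911 untreated and 0, 0.861 and 0.834 treated. These are therefore not values of the ITGAL promoter. In Raji against REH the window differed by 0.90 on the log2 scale for H3K4me2 (SE 0.118, limma adjusted p = 3.81e-04) and by -0.44 for H3K4me3 (SE 0.145, adjusted p = 0.0339), with the peak at the start adding to Raji only. The H3K4me2 difference turned to -0.11 (adjusted p = 0.684) with the maximum and to -0.44 (adjusted p = 0.067) with the mean signal per called base. The H3K4me3 difference failed the test when untreated REH replicate 2 or 3 or untreated Raji replicate 1 or 2 was left out, with adjusted p of 0.0539 to 0.109.

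ITGAX, at chr16:31355134-31382999 on the plus strand, carried H3K4me2 in Raji alone. The locus signal was 0.630, 0.538 and 0.421 in untreated and 0.539, 0.591 and 0.647 in treated Raji libraries, which overlap, and the log2 difference was 0.15 (SE 0.188, limma adjusted p = 0.853). It came from a peak over the main start and a second one that began 3.4 to 3.6 kb upstream. H3K4me3 was called at ITGAX in 1 of 18 libraries, bryostatin replicate 1 of Raji. The same line held H3K27me3 inside the gene, 4.3 to 27.7 kb downstream of the start, and in untreated replicate 3 also past its end, at 30.6 to 32.1 kb. Inside the gene it covered 40.3% and 56.6% of the gene body in untreated replicates 2 and 3 and 33.6% in bryostatin replicate 3. The 3 Raji libraries with the fewest H3K27me3 peaks had none there. With equal numbers of peaks per library, no H3K27me3 peak was left over ITGAX in Raji. NALM6 and REH had no peak of any of the 3 marks over ITGAX.

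ITGB1 and ITGA4, which together encode the VCAM1 receptor, were marked by both H3K4 marks at the main start in 18 of 18 libraries each. The sequence of their promoters is shown beside those of ITGB7 and CD44, which were marked in fewer libraries or in none, with each CG dinucleotide in capitals. They run from 250 bases before the start of the RefSeq gene to 50 after it in GRCh38.p14, along the gene's own strand. The ITGB1 promoter is at chr10:32958181-32958480 (minus strand), that of ITGA4 at chr2:181457136-181457435 (plus), that of ITGB7 at chr12:53207202-53207501 (minus) and that of CD44 at chr11:35138921-35139220 (plus).
ITGB1 promoter: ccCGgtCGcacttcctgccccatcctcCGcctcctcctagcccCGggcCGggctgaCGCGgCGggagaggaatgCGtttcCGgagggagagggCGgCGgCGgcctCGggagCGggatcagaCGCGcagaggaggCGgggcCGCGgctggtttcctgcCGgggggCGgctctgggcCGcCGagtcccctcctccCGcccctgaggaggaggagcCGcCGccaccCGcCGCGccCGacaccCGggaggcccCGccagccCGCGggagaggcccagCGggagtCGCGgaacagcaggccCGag
ITGA4 promoter: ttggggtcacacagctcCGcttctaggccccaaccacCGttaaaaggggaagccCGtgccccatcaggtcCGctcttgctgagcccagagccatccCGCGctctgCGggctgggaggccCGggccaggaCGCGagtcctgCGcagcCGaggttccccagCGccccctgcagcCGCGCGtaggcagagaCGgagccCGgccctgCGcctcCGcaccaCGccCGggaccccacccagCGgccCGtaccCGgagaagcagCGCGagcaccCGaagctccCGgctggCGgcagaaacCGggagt
ITGB7 promoter: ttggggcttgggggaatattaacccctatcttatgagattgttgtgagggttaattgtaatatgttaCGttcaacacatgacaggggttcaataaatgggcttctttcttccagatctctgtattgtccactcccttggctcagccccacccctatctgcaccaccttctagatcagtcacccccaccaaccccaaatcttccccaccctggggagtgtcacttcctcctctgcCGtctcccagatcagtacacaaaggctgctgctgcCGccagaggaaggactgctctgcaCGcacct
CD44 promoter: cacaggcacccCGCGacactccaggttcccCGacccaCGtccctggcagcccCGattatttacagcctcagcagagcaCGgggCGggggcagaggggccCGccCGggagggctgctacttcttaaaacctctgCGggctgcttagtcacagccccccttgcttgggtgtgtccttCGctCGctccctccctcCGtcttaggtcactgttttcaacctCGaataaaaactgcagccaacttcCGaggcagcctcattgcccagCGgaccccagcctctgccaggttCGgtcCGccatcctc
ITGB1 had 39 CG, ITGA4 31, CD44 18 and ITGB7 4, and the promoter of ICAM3 at chr19:10339575-10339874 (minus) had 7. The median of 34943 promoters was 14. Of all promoters, 91.3% held fewer CG than ITGB1, 79.4% fewer than ITGA4, 55.7% fewer than CD44, 36.9% fewer than ICAM3 and 24.6% fewer than ITGB7. Promoter sequences were at hand for 5 of the 9 genes, which leaves out ITGB2, ITGB2-AS1, ITGAL and ITGAX.

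At ITGB1, at chr10:32887273-33005792, H3K4me3 was 1.13, 1.14 and 1.18 in untreated Raji and 1.30, 1.13 and 1.24 in treated Raji. In REH it was lower, 0.809, 0.769 and 0.847 untreated and 0.965, 0.846 and 0.904 treated. NALM6 had 1.50 and 1.60 in untreated replicates 2 and 3 and 1.60 and 1.79 in the same treated replicates, while replicate 1 with its other scaling gave 5.53 and 4.06. Untreated Raji was above untreated REH by 0.52 on the log2 scale (SE 0.0793, limma adjusted p = 8.91e-04), and this held on the peaks at the start alone (0.51, adjusted p = 9.57e-04). It did not pass with the mean signal per called base (0.16, adjusted p = 0.487) or without centring (0.35, adjusted p = 0.553). NALM6 exceeded REH by 1.63 (SE 0.516, adjusted p = 0.129), and by 1.01 once replicate 1 of NALM6 was left out (adjusted p = 7.37e-05), a fit in which 4367 of 11518 genes passed. For H3K4me2 the difference between Raji and REH was 0.62 (SE 0.232) and just missed the test (limma adjusted p = 0.0589), and passed on the peaks at the starts alone (0.93, adjusted p = 0.00632). Raji had further H3K4me2 peaks upstream of ITGB1 that were called in some libraries only.

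ITGA4, at chr2:181457202-181538940, carried H3K4me3 at similar levels in Raji and REH. H3K4me3 was 1.19, 1.17 and 1.17 in untreated REH and 1.14, 1.27 and 1.25 in treated REH. Raji had 1.53, 0.980 and 0.949 untreated and 1.23, 1.03 and 1.06 treated. Untreated Raji and REH differed by -0.06 on the log2 scale for H3K4me3 (SE 0.181, limma adjusted p = 0.820) and by 0.31 for H3K4me2 (SE 0.133, adjusted p = 0.0922). Without untreated Raji replicate 1, the highest value, the H3K4me3 difference was -0.30 with an adjusted p of 0.00602. H3K4me2 at the main start was 1.05 to 1.38 in untreated Raji, 1.08 to 1.15 in untreated NALM6 and 0.760 to 1.10 in untreated REH, so that neighbouring lines overlapped.

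**Figure D3:**
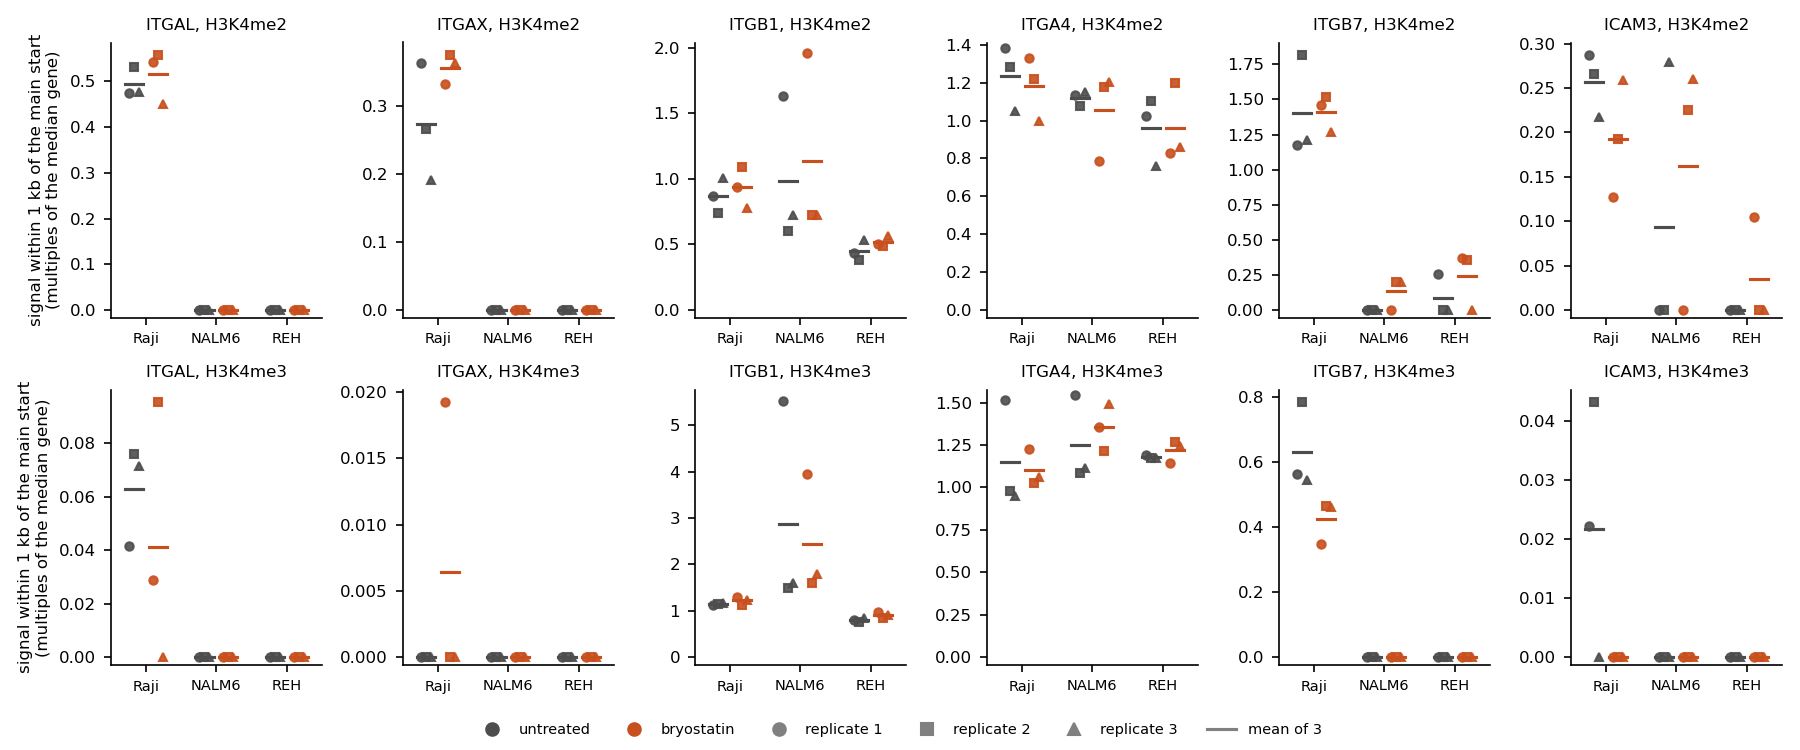
Signal of peaks within 1 kb of the main start, in multiples of the median marked gene, for the 6 genes named above each panel and for H3K4me2 (top) and H3K4me3 (bottom); points are libraries, shapes are replicates and bars are means of 3, and the vertical scales differ. ITGAL and ITGAX have points above 0 only in Raji, ITGB1 and ITGA4 have them in all 3 lines, and ITGB7 has H3K4me3 only in Raji, with treated values below untreated ones.

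ITGB7, at chr12:53191323-53207282 on the minus strand, was marked by H3K4me3 at its main start in all 6 Raji libraries and in none of NALM6 or REH. In Raji the H3K4me3 signal over the locus was 0.623, 0.784 and 0.626 untreated and 0.383, 0.544 and 0.462 treated, with means of 0.678 ± 0.0921 and 0.463 ± 0.0806 (SD, n = 3 each). The treated values were all below the untreated ones, and groups did not overlap in either direction at 12.2% of the 14061 genes tested. The log2 difference of -0.57 (SE 0.134) did not pass the test (limma adjusted p = 0.538, and 0.0955 with the replicate block). H3K4me2 overlapped between the groups, at 1.83, 1.82 and 1.93 untreated and 1.79, 1.84 and 1.95 treated. In REH a smaller H3K4me2 peak was called 0.5 to 3.2 kb upstream of the start, with locus signals of 0.258, 0.344 and 0.314 untreated and 0.372, 0.354 and 0.330 treated, which overlap, and bryostatin replicate 1 also had a peak over the start. Untreated Raji exceeded untreated REH by 2.52 on the log2 scale for H3K4me2 (SE 0.143, limma adjusted p = 5.18e-06), and by 0.28 with the mean signal per called base (adjusted p = 0.275). NALM6 had an H3K4me2 peak inside the gene in 5 of 6 libraries, beginning 5.7 to 9.5 kb downstream of the start, with locus signals of 0, 0.367 and 0.827 untreated and 0.312, 0.519 and 0.717 treated. A second peak lay upstream of the start in 3 NALM6 libraries. In bryostatin replicates 2 and 3 it ended 0.9 and 0.6 kb before the start, within the 1 kb window, with signals of 0.202 and 0.198, and in untreated replicate 3 it ended 1.5 kb before it, so that no untreated NALM6 library had a peak in that window.

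ICAM3, at chr19:10333776-10339661 on the minus strand, had H3K4me2 at its main start in 6 of 6 Raji, 3 of 6 NALM6 and 1 of 6 REH libraries. In Raji the signal there was 0.287, 0.266 and 0.218 untreated and 0.128, 0.192 and 0.259 treated, which overlap. H3K4me3 was called at the main start only in untreated Raji replicates 1 and 2, with 0.0222 and 0.0431. Most of the signal in the wider window came from a peak 4.0 to 8.2 kb downstream, at the neighbour RAVER1, which was found in every line. With it the H3K4me2 values of REH were 0.598, 0.632 and 0.676 untreated and 0.749, 0.762 and 0.681 treated, and those groups did not overlap. The value of 0.749, in bryostatin replicate 1, also takes in a peak of 2.16 kb over the ICAM3 start. The separation is therefore not that of the RAVER1 peak alone.

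CD44, at chr11:35138882-35232402 on the plus strand, had no H3K4me2 and no H3K4me3 peak within 1 kb of its main start in 18 of 18 libraries each. H3K4me2 was called inside the gene in 3 Raji and 2 REH libraries, with a peak beginning 23.4 to 26.9 kb downstream of the start in each. NALM6 held H3K27me3 over the CD44 start, 2.07 and 2.45 kb wide in untreated replicates 2 and 3 and 2.34 and 1.07 kb wide in the treated ones. No H3K27me3 peak over CD44 was called in Raji or REH.

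**Figure D4:**
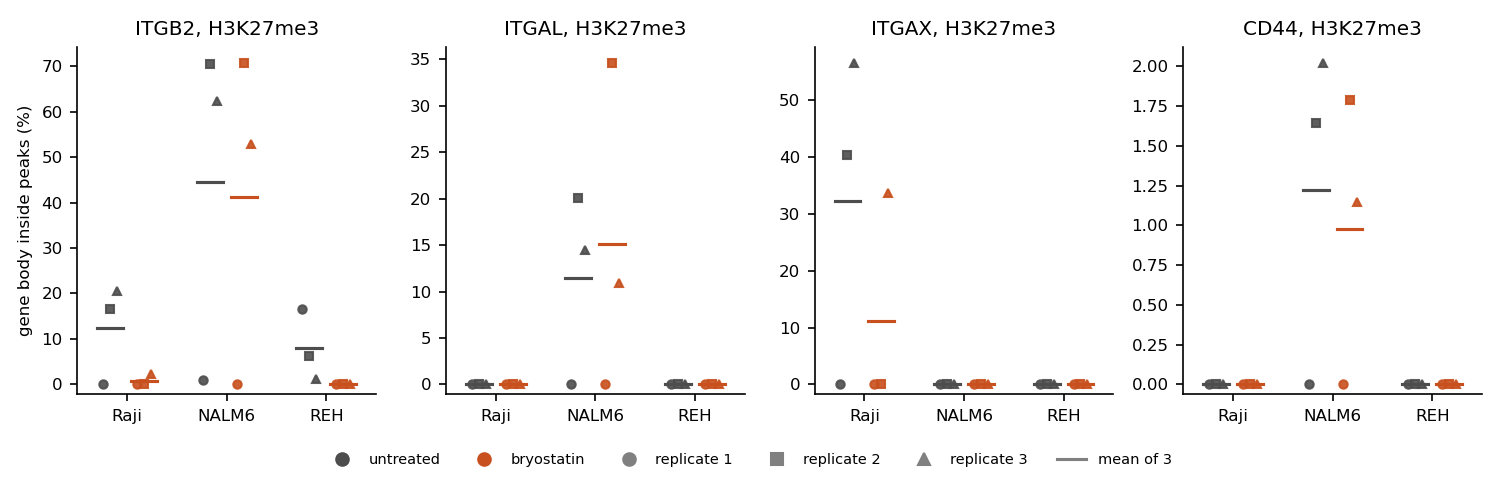
Share of the gene body inside H3K27me3 peaks in percent, for ITGB2, ITGAL, ITGAX and CD44; points are libraries, shapes are replicates and bars are means of 3, and the vertical scales differ. NALM6 replicates 2 and 3 have 52.9% to 70.7% of ITGB2 covered, ITGAX is covered in Raji only, and ITGAL and CD44 in NALM6 only.

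Over ITGB1, ITGA4, ITGB7 and ICAM3, H3K27me3 was called in 1 library only. In untreated Raji replicate 2 peaks of 1.80, 2.31 and 1.98 kb lay over the starts of ITGB1, ITGA4 and ITGB7, where the same line also had H3K4me3, and these were not seen in another library. The same library had an H3K27me3 peak of 2.06 kb in the ICAM3 window, 5.5 to 7.5 kb downstream of the main start, and one of 1.99 kb in the ITGAL window at ZNF768. At the main start the mark was called at ITGB2 in 3 of 6 Raji, 4 of 6 NALM6 and 0 of 6 REH libraries. At ITGAL and CD44 it was called in 4 of 6 NALM6 libraries and in none of Raji or REH. In the NALM6 libraries without these peaks, all of replicate 1, only 1444 and 590 H3K27me3 peaks were called in all.

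Counted over the 9 genes at the main start, H3K4me2 was present in all 3 untreated libraries at 8 genes in Raji, 4 in REH and 2 in NALM6. Over all 38899 genes the shares were 28.5% in Raji, 35.4% in REH and 15.3% in NALM6. The member counts were the same in the treated groups, beside 32.7%, 32.2% and 17.5% of all genes. For H3K4me3 the counts were 6, 2 and 2 in untreated Raji, REH and NALM6, beside 33.2%, 26.9% and 19.9% of all genes, and 5, 4 and 2 in the treated cells, beside 31.6%, 27% and 15.4%. The NALM6 counts include replicate 1 with its other scaling. In NALM6 replicates 2 and 3 alone H3K4me2 was present at 2 of the 9 genes untreated and 6 treated, beside 26.4% and 33.1% of all genes, and H3K4me3 at 2 in each, beside 32.8% and 16.3%. ITGB2 and ITGB2-AS1, which share a peak, and ICAM3 already had H3K4me2 at the start in untreated replicate 3. ITGB7 differed by where its upstream peak ended. Untreated replicate 2 held 9192 H3K4me2 peaks, against 11663 in untreated replicate 3 and 12332 and 12157 in the treated ones, and no treatment gain is read from this step. Treated replicate 3 for H3K4me3 in NALM6 held 4389 peaks from 5.41 M reads, against 10249 peaks in treated replicate 2. The part of this in the treated share was not tested. The counts of the 9 genes are a description, since the list was chosen and its shared peaks count more than once. The 2 genes counted only in treated REH were ITGB2 and ITGB2-AS1, which share a peak, and the gene counted only in untreated Raji was ITGAL, whose peak was not called in bryostatin replicate 3.

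None of the tested genes passed the threshold for bryostatin in Raji or NALM6, in contrasts where almost no gene passed. In Raji, 8 of the 9 genes had an H3K4me2 peak in all 6 libraries and 7 an H3K4me3 peak. None of them passed limma at an adjusted p of 0.05. The share of all genes that passed was 0.0151% of 13206 for H3K4me2 and 0.00711% of 14061 for H3K4me3. Nothing about the 9 genes is therefore read from the lack of calls. Over all genes 682 of 13206 and 720 of 14061 had an unadjusted p under 0.05, and ITGB2 with ITGB2-AS1 and ITGB7 were among the latter. The median log2 difference was 0.02 over the 8 genes against -0.04 over all for H3K4me2, and -0.04 against -0.00 for H3K4me3. In NALM6, 2 genes could be tested for H3K4me2 (ITGB1 and ITGA4) and 3 for H3K4me3 (with ITGAL), and none passed. There 0% of 6542 genes passed for H3K4me2, with 86 at an unadjusted p under 0.05, and 0% of 6683 for H3K4me3, with 16. Groups did not overlap at 10.3% of the genes for H3K4me2 in NALM6 and at 5.3% for H3K4me3, and of the 9 genes this was so for ITGAL with H3K4me2, which had no peak in a treated library and so is not among the 6542 genes. The difference in response between Raji and NALM6, tested as an interaction in limma, passed for 0 of 2 genes for H3K4me2 and 0 of 3 for H3K4me3. It passed for 0% of 5776 and 0% of 6387 genes in all, with 79 and 76 at an unadjusted p under 0.05.

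Besides ITGB2 and ITGB2-AS1, 5 genes had an H3K4me2 peak in all 6 REH libraries and 4 had such an H3K4me3 peak. These differed by at most 0.21 on the log2 scale. ITGAX and CD44 could not be measured this way for either mark, nor could ITGB7 for H3K4me3. The log2 difference in H3K4me2 was 1.33 at ITGB2 and 1.32 at ITGB2-AS1, and 0.21 at ITGB7, 0.20 at ICAM3, 0.18 at ITGAL, 0.05 at ITGA4 and 0.01 at ITGB1, for SEs of 0.0886 to 0.136 over all 7. Groups did not overlap for ITGB2, ITGB2-AS1, ITGAL and ICAM3, beside 10.3% of all 14796 genes with such groups, and nothing is read from this count. The ITGAL values are those of the peak at its neighbour. Those of ICAM3 come mostly from the neighbour's peak, and in bryostatin replicate 1 also from a peak over its own start. For H3K4me3 the log2 difference was 0.16 at ITGB1, 0.05 at ITGA4, -0.01 at ICAM3 and -0.07 at ITGAL.

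**Figure D5:**
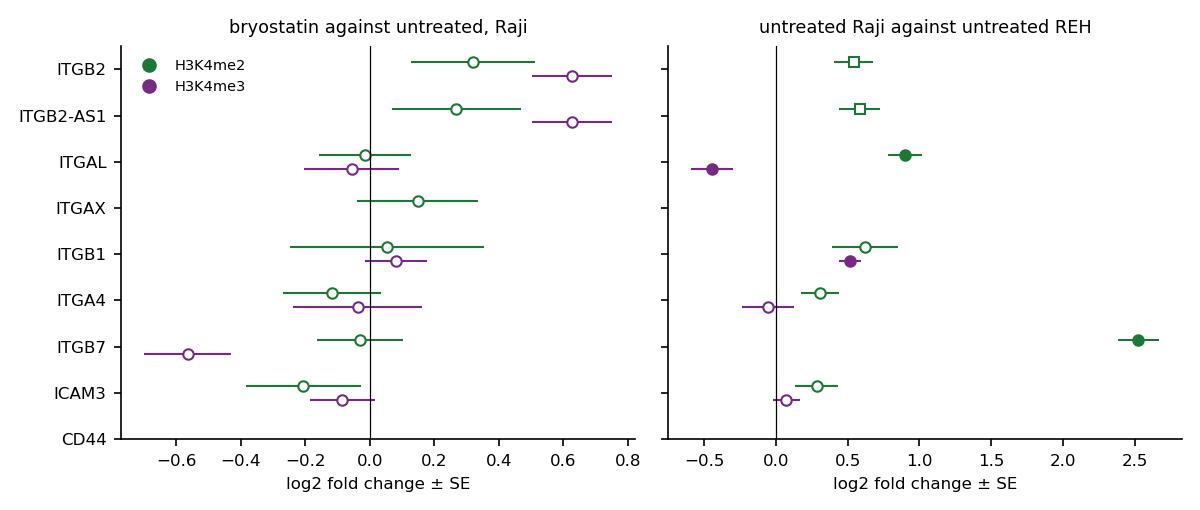
log2 fold change ± SE from limma for each gene, for bryostatin against untreated in Raji (left) and untreated Raji against untreated REH (right), in green for H3K4me2 and purple for H3K4me3, with filled circles for an adjusted p below 0.05 and open squares for ITGB2 and ITGB2-AS1 on the right, which are shown with no test. No point is filled on the left, and 2 H3K4me2 and 2 H3K4me3 points are filled on the right, of which ITGB7 lies farthest out at 2.52. The ITGAL and ICAM3 points take in peaks at neighbouring genes.

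Between untreated Raji and REH, 7 of the 9 genes had H3K4me2 peaks in all 6 libraries, and ITGB2 and ITGB2-AS1 among them are given with no test. Of the 5 others ITGAL and ITGB7 were higher in Raji and none was lower, beside 43.4% of all 12271 genes tested, of which 2763 were higher and 2567 lower. Without centring on the median gene the split over all genes was 826 higher and 2923 lower. The median of these 5 genes was 0.62 on the log2 scale against 0.01 for all genes. With the mean signal per called base ITGAL turned to -0.44 and ITGB7 fell to 0.28 (limma adjusted p = 0.275 for ITGB7), and ITGAL was reversed with the maximum as well. The ITGAL and ICAM3 windows draw most of their signal from peaks at neighbours. For H3K4me3, 4 genes could be tested, and ITGB1 was higher and ITGAL lower, beside 48.4% of 11232 genes with 2488 higher and 2951 lower, or 366 and 1391 without centring. The lower ITGAL value is that of the window with the peak at ZNF768. At the ITGAL start itself H3K4me3 was called in Raji and not in REH. No higher share than the background is read from these counts. ITGAX and CD44 were missing from the H3K4me2 test, and ITGAX, ITGB7 and CD44 were missing from the H3K4me3 test because peaks were not called in all 6 libraries, and so were ITGB2 and ITGB2-AS1. Between untreated NALM6 and REH none of 3 genes passed for either mark, beside 9.91% of 7701 genes for H3K4me2 and 6.57% of 8579 for H3K4me3. The unadjusted p was under 0.05 for ITGAL with H3K4me2 and for ITGB1 with H3K4me3. Without NALM6 replicate 1 both passed, the ITGAL window with a log2 difference of 0.47 (limma adjusted p = 0.0122) and ITGB1 with the value given above. In that fit 3363 of 11998 genes passed for H3K4me2 and 4367 of 11518 for H3K4me3, so that such calls were common.

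The wider adhesion pathway was read from a list of 48 genes, made up of 15 other integrin subunits, 13 ligands and partners and 20 activators and adaptors. None passed for bryostatin in Raji (31 tested for H3K4me2 and 26 for H3K4me3) or in NALM6 (19 and 15). In REH none of 33 and 24 passed. The shares of all genes that passed for H3K4me2 and H3K4me3 were 0.0151% and 0.00711% in Raji and 0% for both in NALM6. In REH they were 0.176% and 0.473%, so nothing about the pathway is read from the lack of calls. Between untreated Raji and REH 9 of 29 were higher and 5 lower for H3K4me2, 48.3% in all, and 6 of 22 were higher and 6 lower for H3K4me3, 54.5% in all, which is close to the share over all genes. The small GTPases RAP1A and RAP1B, which drive integrin activation from inside, were higher in Raji for both marks, by 1.50 and 1.25 for H3K4me2 and 0.76 and 0.32 for H3K4me3 on the log2 scale. The kinase gene STK4 (0.97 and 1.46), CYTH1, whose product binds the tail of CD18 (0.97 and 0.94), and the adaptor SKAP2 (0.93 and 0.47) were likewise higher for H3K4me2 and H3K4me3. The focal adhesion kinase relative PTK2B (-1.52 and -0.89), the LFA-1 ligand ICAM2 (-1.14 and -0.60) and the junctional adhesion molecule JAM2 (-1.05 and -2.56) were lower in Raji for both. For H3K4me2 alone the integrin genes ITGA6 (1.16) and ITGA1 (0.88), the selectin ligand SELPLG (1.28) and the LFA-1 ligand ICAM1 (0.37) were higher in Raji, and the adaptor PXN (-1.54) and the filamin FLNA (-1.35) were lower. For H3K4me3 alone RASGRP2, an activator of RAP1 known from blood cells (-1.61), MADCAM1 (-0.40) and the talin TLN1 (-0.35) were lower and ITGB1BP1 (0.28) was higher. These passed limma with Benjamini-Hochberg adjusted p of at most 0.0440. The values are sums over a gene and its 3 kb flanks, which can hold a neighbour's start, and values at the genes' own starts are not given. They are also centred on the median gene. Without centring 826 genes were higher in Raji and 2923 lower for H3K4me2, and 366 and 1391 for H3K4me3. The median difference over all genes was then -0.29 and -0.19. No values without centring are given for the named genes. Between NALM6 and REH, ICAM1 (-1.36) and the RAP1 effector RASSF5 (-1.20) were lower in NALM6 for H3K4me2, with adjusted p from limma of 0.0230 and 0.0275, and MADCAM1 (-0.59) for H3K4me3, with 0.0436. These were 2 of 20 listed genes tested, 10%, beside 9.91% of all genes, and 1 of 17, 5.88%, beside 6.57% of all genes. Both shares were close to the background. The fit includes NALM6 replicate 1 with its other scaling, and without centring no gene was called between NALM6 and REH for either mark.

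Among 11589 other genes with H3K4me2 in at least 9 of the 18 libraries, those whose levels were most like ITGB2 were SLC35E4 (Pearson r = 0.943), TNF (0.934), ERI2 (0.931), CUTA (0.929) and ZFHX2 (0.929), over 18 libraries, of which the 6 of a line come from the same cells and NALM6 replicate 1 has another scaling. They were picked for this likeness, so their order of lines is no separate result. TNF, the cytokine gene, was 4.42 to 5.28 in untreated Raji, 0 to 1.07 in untreated NALM6 and 3.35 to 4.32 in untreated REH. In treated REH it was 3.55 to 3.92, within the untreated range. ITGB2 had 5.93 to 6.39 treated and 2.29 to 2.61 untreated. Those are the values of the contrast that chose its locus, so nothing is read from the difference between the 2 genes. SLC35E4 was 1.26 to 1.45 in untreated and 1.51 to 1.56 in treated REH.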

How the data were processed

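Peak lists of 54 Cut&Tag libraries (marks H3K4me2, H3K4me3, H3K27me3) were analysed. Per the study's methods, the authors trimmed reads with Trim Galore, aligned them to hg38 with Bowtie2, normalized coverage by RPKM and called peaks in each library with SEACR. The peaks of 48 libraries followed a 10 bp grid, and those of the 6 NALM6 replicate 1 libraries did not. Tool versions are not given in the sources used here. The deposited values are the total and maximum signal of each peak, computed by the authors from coverage. How it was scaled in the 6 NALM6 replicate 1 libraries is not stated, and no read counts were used. IgG libraries were not used here.

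Peaks touching a gene of GENCODE 44 or its 3 kb flanks by at least 1 bp were summed, with peaks of 24 chromosomes. Log2 sums of genes with a peak in all 6 libraries, centred on their median, entered limma 3.58.1 (R 4.3.3; moderated statistics with a mean-variance trend). P-values were adjusted by Benjamini and Hochberg over all genes tested, at a threshold of 0.05. The fit was tested on simulated data. The 9 genes, the pathway list and the marker list were chosen with earlier results of these data known. The genes named are the 9 genes, the pathway genes that passed, and the 5 genes most like ITGB2 by Pearson correlation of log2(value + 0.1) over the H3K4me2 libraries. The alternatives tried were maximum signal, mean signal, values without centring, prorated peaks, a peak in at least 3 of 6 libraries, the upper part of peaks by signal, other windows and flanks, no trend, equal numbers of peaks, leaving out each library, and the replicate number as a block. Counting only peaks within 1 kb of the gene's own starts was chosen after seeing the data.

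Replicate numbers were taken as pairs where the deviations of same-numbered libraries correlated above 0.1 in all 3 pairs. This was so for H3K4me3 in Raji (0.374 to 0.496), for H3K4me2 (0.417 to 0.504) and H3K4me3 (0.536 to 0.675) in NALM6 and for H3K4me2 in REH (0.117 to 0.313), and not for H3K4me2 in Raji (-0.321 to 0.393). Differently numbered libraries reached 0.21 for H3K4me3 in Raji and 0.015 for H3K4me2 in REH. In NALM6 they reached 0.466 for H3K4me2 and 0.598 for H3K4me3, inside the ranges of the same-numbered ones, so pairing is not shown there. Promoter sequences are from RefSeq, build GRCh38.p14. Tables and figures were made with Python 3.11.15, pandas 2.3.3, numpy 2.4.6 and matplotlib 3.10.9.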

Additional observations from a re-analysis of the deposited data

Results flagged for a closer look

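The H3K4me2 signal in the window of ITGAL was higher with bryostatin in REH and lower in NALM6. Every treated REH library was above every untreated one, with means of 0.845 and 0.743 times the median gene, and every treated NALM6 library was below every untreated one, with means of 0.565 and 0.928. The NALM6 means include replicate 1, which has the other scaling, with 0.867 untreated and no peak treated. In replicates 2 and 3 the values were 1.01 and 0.911 untreated and 0.861 and 0.834 treated. Groups without overlap were found at 10.3% of genes in REH. The same share in NALM6 was over genes with a peak in all 6 libraries, which leaves out ITGAL. In both lines the signal is the peak at ZNF768 beyond the end of ITGAL. The difference between the lines was not tested.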

How the results depend on the processing

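In Raji the number of genes called for bryostatin and H3K4me2 was 2, and it was 4 with the maximum signal, 0 with the mean signal, 1 without centring, 0 with prorated peaks, 5 with the upper part of the peaks, 0 with the replicate block and 1 with peaks at the starts only, an alternative chosen after seeing the data. It was 0 to 80 when a library was left out, with 80 without untreated replicate 3 and 11 without bryostatin replicate 3. For H3K4me3 it was 1, and 35 without centring, 13 with prorated peaks, 3 with a peak in at least 3 of 6 libraries, 3 with the upper part of the peaks, 16 with the replicate block, 0 at the starts only and 1 to 5 with a library left out, reaching 5 without untreated replicate 1. In NALM6 it was 0 for both marks, and 8 for H3K4me2 and 6 for H3K4me3 without NALM6 replicate 1. The interaction of Raji and NALM6 was then called at 1 and 4 genes. In REH 26 genes were called for H3K4me2, with 4 for the mean signal, 9 with the replicate block and 14 to 53 with a library left out. For H3K4me3 56 were called, with 0 for the mean signal (where 469 had an unadjusted p under 0.05), 24 when blocked by replicate and 2 to 73 with a library left out, with 2 without bryostatin replicate 3, 4 without bryostatin replicate 1 and 13 without bryostatin replicate 2. None of the 9 genes was called for bryostatin in Raji or NALM6 under any alternative run.

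Between Raji and REH 5330 genes were called for H3K4me2, and 3250 with the mean signal, 8741 with a peak in at least 3 of 6 libraries, 2464 with the upper part of the peaks and 3976 to 6064 with a library left out. For H3K4me3 5439 were called, and 2688 with the maximum, 2375 with the mean, 1757 without centring, 2467 with the upper part of the peaks and 4606 to 5871 with a library left out. Between NALM6 and REH 763 genes were called for H3K4me2, and 385 with the maximum, 328 with the mean, 0 without centring, 3792 with a peak in at least 3 of 6 libraries, 337 with the upper part of the peaks and 225 to 3363 with a library left out, the latter without NALM6 replicate 1. For H3K4me3 564 were called, and 230, 58, 0, 1390 and 220 under the same settings, 88 with the replicate block and 72 to 4367 with a library left out. Without centring the median log2 difference of all genes was -0.29 and -0.19 for Raji against REH (H3K4me2, H3K4me3), -1.57 and -1.35 for NALM6 against REH, and 0.27 and 0.25 for bryostatin in Raji. The difference at ITGAL between Raji and REH for H3K4me2 was reversed, to -0.11 and -0.44, with the maximum and mean signal. In these cases the cause was not tested.

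The H3K4me2 difference at ITGB2 in REH was 1.33 on the log2 scale, and 0.78 with the maximum signal, 0.61 with the mean signal and 1.19 with 10 kb flanks, and 1.28 to 1.37 with a library left out. Of 54 pairs of gene and library per line, 14 had H3K27me3 in Raji, 17 in NALM6 and 9 in REH. With equal numbers of peaks per library these were 0 in Raji and 7 in NALM6, and without flanks 4 in REH. The share over all genes is not given beside these counts, and peaks shared by ITGB2 and ITGB2-AS1 count for both. All the REH pairs were of those genes. Nothing about the 9 genes or the order of the lines is read from the counts. The replicate block changed no call of the 9 genes except ITGB1 H3K4me2 in Raji against REH, which passed with it at an adjusted p of 0.0291. Signals were read only inside called peaks, so shallow libraries and the H3K27me3 libraries with few peaks limit what an empty locus can show.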
